A study of Mus musculus with 2 samples.

Results

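Bone marrow monocytes that carried the fractalkine receptor gene *Cx3cr1* and were not cycling were examined in radiation control (RC) mice. They were picked from the RC library by counts of unique molecular identifiers (UMIs), each of which stands for 1 captured transcript. A cell entered when it had at least 1000 detected genes, at most 25% mitochondrial UMIs, at least 3 UMIs over the monocyte genes *Csf1r*, *Ccr2*, *F13a1*, *Ms4a6c* and *Ly86*, and more of these than of 8 neutrophil granule genes (*Camp*, *Ngp*, *Fcnb*, *Cebpe*, *Elane*, *Mpo*, *Prtn3* and *Ctsg*). It also had to hold fewer than 5 UMIs over the cell cycle genes *Mki67*, *Top2a*, *Birc5*, *Ccna2*, *Stmn1* and *Pclaf*, and at least 1 UMI of *Cx3cr1*. These criteria gave 124 cells, which were 49.4% (43.1–55.8) of the 251 non-cycling monocytes, 18.7% (15.8–21.9) of the 662 RC cells retained by the filter, out of 798 RC barcodes. The series holds 1623 barcodes in all. The other 127 non-cycling monocytes, in which *Cx3cr1* stood at 0, served as the comparison cells throughout. Because *Cx3cr1* chose the cells, its own level is a description and not a result.

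RC and severe aplastic anemia (SAA) mice were F1 hybrids of C57BL/6 and BALB/c parents, and both received 300 rads of radiation. SAA mice also received 65000000 C57BL/6 (B6) splenocytes. Live 7-AAD-CD11b+Ly6C+Ly6G- marrow cells of 3 mice per condition were pooled into 1 library, 798 barcodes for RC and 825 for SAA, so there was no replicate, no test between conditions was possible, and cells were not used as replicates. The Ly6C gate sets which monocytes could be seen, since Ly6C-negative cells fall outside it. Sums of UMIs were scaled to 1000000 UMIs of the same group of cells (CPM). Intervals in parentheses are 95% intervals, exact Poisson for CPM, exact Clopper-Pearson for shares and exact conditional binomial for ratios, and they cover counting error only. In all, 4066589 UMIs were counted for RC and 5592265 for SAA, with medians per barcode of 4082.5 and 5884. The 2 libraries had 1 barcode sequence in common, and it belongs to 1 of the 124 cells.

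CX3CR1 is a G protein-coupled receptor for fractalkine (CX3CL1), a chemokine that exists as a membrane-bound and a shed form. Monocytes leave the marrow with the help of CCR2. Classical monocytes are rich in Ly6C and CCR2 and low in CX3CR1, whereas the non-classical monocytes that derive from them and patrol vessel walls are low in Ly6C, high in CX3CR1 and depend on the transcription factor NR4A1. Some classical monocytes instead take up a dendritic cell program with MHC class II.

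Most of the 124 cells held very little *Cx3cr1* (chromosome 9, 119901616 to 120069879, minus strand, GRCm38). Of them, 70 (56.5%) had 1 UMI, 32 had 2, 12 had 3, 5 had 4, 1 had 5, 2 had 6 and 2 had 8, a total of 223 UMIs with a mean of 1.80 ± 1.31 (SD) per cell. Their level was 557.8 CPM (486.9–636.0), and that of all 251 non-cycling monocytes was 278.4 CPM (243.1–317.5). The line between 1 and 0 UMIs separated 70 cells just inside from 127 just outside, at medians of 2886.5 and 2855 total UMIs. At the other limits, 0 members had exactly 3 monocyte UMIs, 1 had 4 cycle UMIs, and 6 had fewer than 50 genes above the minimum of 1000, against 6 barcodes left out within 50 genes below it. The groups are ranges of a sparse count, so a cell at 0 may hold the transcript below detection, and whether they are also distinct states was not tested.

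Total depth differed little between the groups. The members held a median of 3000.5 UMIs (range 1875 to 5946) and 1370 genes, and the *Cx3cr1*-0 cells 2855 UMIs (1883 to 6952) and 1321 genes. Their mitochondrial shares had medians of 1.76% and 1.72%. From the shallowest to the deepest quartile of UMIs per cell, the share with a *Cx3cr1* UMI was 54.0%, 32.3%, 57.1% and 54.0%. The share did not climb with depth across these quartiles. Granule genes were at 0 UMIs in 71.0% of members and 63.8% of *Cx3cr1*-0 cells, and cycle genes in 88.7% and 79.5%.

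Across RC marrow, detection of *Cx3cr1* went with the monocyte genes. A *Cx3cr1* UMI was found in 49.4% (43.1–55.8) of non-cycling monocytes, in 23.6% (15.2–33.8) of 89 cycling monocytes and in 0.314% (0.00796–1.74) of 318 cells in which granule genes exceeded monocyte genes. These last cells gave 1 UMI in all, although their median depth of 6787.5 UMIs was above the 2908 of non-cycling monocytes, so the share in monocytes stood far above this background. After each cell was thinned to 2200 UMIs, the shares were 38.7% (32.4–45.3) of 230 non-cycling and 10.2% (4.78–18.5) of 88 cycling monocytes. The thinning left out 21 and 1 shallower cells, and a separate draw of it found 98 instead of 89 of the 230 cells with a UMI. The level was 54.3 CPM (36.6–77.5) in cycling monocytes, where the cycle genes and not *Cx3cr1* had set the groups apart.

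**Figure D1:**
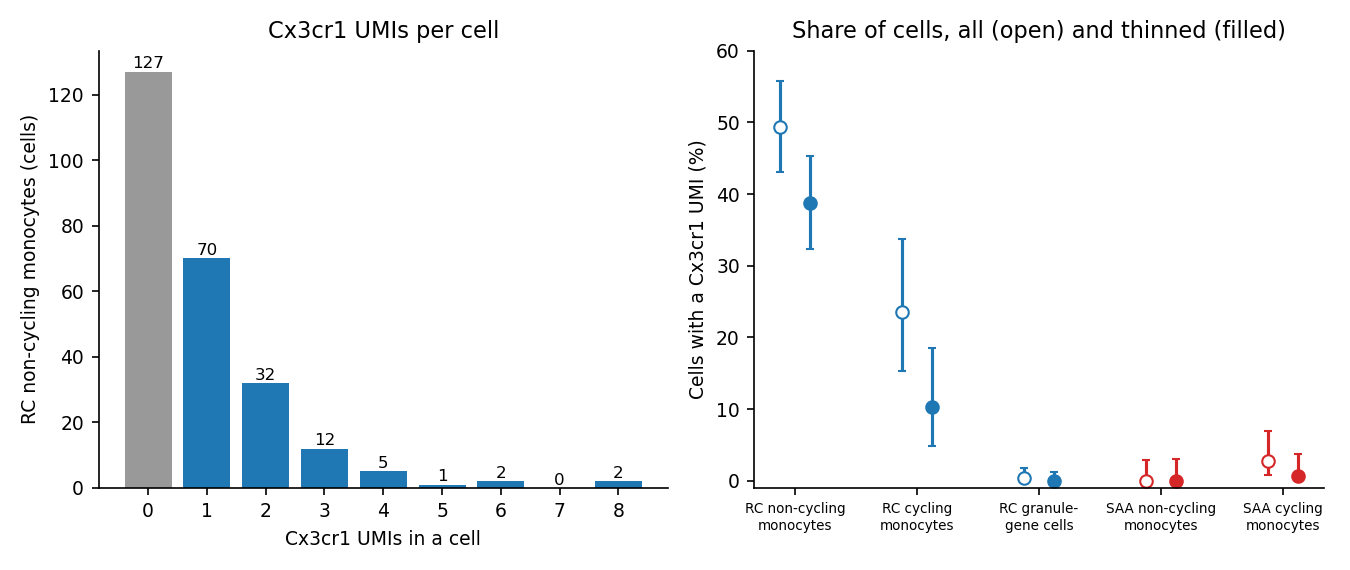
Left, number of RC non-cycling monocytes (y axis, cells) by Cx3cr1 UMIs per cell (x axis), with the count of cells above each bar. Right, percent of cells with at least 1 Cx3cr1 UMI in 5 groups of cells, all cells (open points) and cells thinned to 2200 UMIs (filled points), with exact 95% intervals. The share is 49.4% in RC non-cycling monocytes and 0 of 128 in SAA.

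In SAA marrow, the same rule found 0 members. None of 128 non-cycling SAA monocytes held a *Cx3cr1* UMI, which allows a share of up to 2.34% by 3 counts of the total (2.84% by the exact interval), and 0 of 123 did after thinning. The SAA cells were deeper, at a median of 4464 UMIs. Set against a floor of 3 UMIs over the SAA group (4.73 CPM), *Cx3cr1* was 58.9-fold higher over the 251 RC non-cycling monocytes. The exact 95% upper limit for the SAA cells was above that floor, at 5.81 CPM, so 58.9-fold is not a lower bound. SAA cycling monocytes held a UMI in 4 of 146 cells and granule-gene cells in 3 of 421. The whole SAA library had 20 *Cx3cr1* UMIs against 311 in RC. Of the 13 retained SAA cells that held the gene, 9 had at least 3 UMIs of a T and NK cell list. Among the 124 RC members, 0 had as many, and 12 of the 13 genes on that list were at 0 UMIs.

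The label was checked against the markers *Ccl9* (chromosome 11, 83572919 to 83578636), *Lrp1* (chromosome 10, 127538161 to 127621148) and *Fn1* (chromosome 1, 71585520 to 71653200). *Ccl9*, which encodes a chemokine made by myeloid cells, was found in 93 of 124 members and 79 of 127 *Cx3cr1*-0 cells, with 0 to 6 UMIs per cell in either group and a median of 1. Its level was 495.2 CPM (428.6–569.2) against 396.4 CPM (337.2–463.0), a ratio of 1.25 (1.01–1.55). *Lrp1*, an endocytic receptor that takes part in the uptake of apoptotic cells, was at 437.7 CPM in members and 309.1 CPM in *Cx3cr1*-0 cells, a ratio of 1.42 (1.12–1.80). At equal depth (2200 UMIs) *Lrp1* was past 1.5-fold, at 1.55 with raw and 1.66 with thinned membership. *Fn1*, the gene for fibronectin, was not higher in members, at 2621 CPM against 2854 CPM and a ratio of 0.92 (0.844–0.999), and with thinned membership it was at 1.01. All 3 genes were present in both groups, and over all cells their ratios were inside 1.5-fold. They set RC apart from SAA instead. In SAA non-cycling monocytes *Ccl9* was at 66.2 CPM, *Lrp1* at 146.5 CPM and *Fn1* at 266.2 CPM. Members stood 7.49-, 2.99- and 9.85-fold above SAA, and *Cx3cr1*-0 cells 5.99-, 2.11- and 10.7-fold. Members and *Cx3cr1*-0 cells share the SAA comparator. Of the lists for other lineages, basophil, mast cell and eosinophil genes summed to 1 UMI in members, T and NK genes to 1, progenitor genes to 11 and erythroid genes to 14. B cell genes summed to 60 UMIs in 33.1% of members, late neutrophil genes to 217 in 75.8% and plasmacytoid and conventional dendritic cell genes to 247 in 78.2%.

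Few genes were far apart between members and *Cx3cr1*-0 cells. Of 2399 genes with at least 50 UMIs over both groups, 109 (4.54%) were at least 1.5-fold higher and 88 (3.67%) at least 1.5-fold lower in members, without the 20 genes of the rule, and the median log2 ratio was 0.00. Ratios above 1 were found for 51.4% of the 2399 genes. Within quartiles of depth 107 and 108 genes passed the same fold, of which 96 and 82 were shared with the first count. The counts rested on sparse genes. With at least 200 UMIs, 549 genes remained and 5 passed, *Cd74* and *H2-Aa* on the higher side and *S100a8*, *Chil3* and *Arf1* on the lower. These 5 were picked out after their values had been seen.

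The 12 genes highest in members by the bound of the interval nearest to 1 included receptors, regulators and antigen presentation genes. *Fcgr2b* (chromosome 1, 170958617 to 170976547) encodes the inhibitory receptor for IgG. It was at 175.1 CPM (70 UMIs) in members and 87.3 CPM (35 UMIs) in *Cx3cr1*-0 cells, a ratio of 2.01 (1.32–3.10), and was found in 37.1% against 21.3% of cells. *Pou2f2*, the gene of the transcription factor OCT2 and a member of the non-classical monocyte list, was at 215.1 against 119.7 CPM, a ratio of 1.80 (1.25–2.62). *Bst2*, the interferon-inducible antiviral protein tetherin, was at 192.6 against 107.2 CPM, also 1.80 (1.22–2.67). *Ifngr1*, the ligand-binding chain of the interferon-gamma receptor, was at 445.2 against 311.6 CPM (1.43, 1.13–1.81). *Itga4*, the alpha chain of the integrin VLA-4, was at 522.7 against 373.9 CPM (1.40, 1.13–1.74), and *Apoe*, a lipid carrier protein made by macrophages, at 897.9 against 678.1 CPM (1.32, 1.13–1.56). *Apoe* depended on the cells used, since it reached 1.59 and 1.81 at equal depth with raw and thinned membership and turned to a log2 ratio of −0.62 under a stricter cell filter that left 85 cells. *Hspa8*, a constitutive chaperone, had a ratio of 1.40. *Lnpep*, an aminopeptidase of endosomes, reached 1.61 and *Arhgap17*, a GTPase-activating protein, 1.69. *AY036118* was at 1671 against 1212 CPM.

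The 12 lowest genes were led by *S100a8* (chromosome 3, 90668978 to 90670035), which encodes one chain of the neutrophil and monocyte protein calprotectin. It was at 95.04 CPM (38 UMIs) in members and 603.3 CPM (242 UMIs) in *Cx3cr1*-0 cells, a ratio of 0.158 (0.109–0.222). *Chil3*, a chitinase-like protein of classical monocytes and neutrophils, was at 447.7 against 688.1 CPM (0.65, 0.54–0.79), and *Slpi*, a secreted inhibitor of leukocyte proteases, at 180.1 against 304.1 CPM (0.59, 0.44–0.80). *Pgam1*, a glycolytic enzyme, had a ratio of 0.48 (0.33–0.69) and *Ckap4*, a protein of the endoplasmic reticulum, 0.45 (0.29–0.68). Lower ratios also held for the chromatin genes *Atrx* (0.56) and *Kmt5a* (0.57), the calpain subunit *Capns1* (0.58), the RNA-binding protein *Larp1* (0.56), the ATP synthase subunit *Atp5g1* (0.63), the lysosomal trafficking regulator *Lyst* (0.64) and the cytoskeletal regulator *Arhgdib* (0.74).

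**Figure D2:**
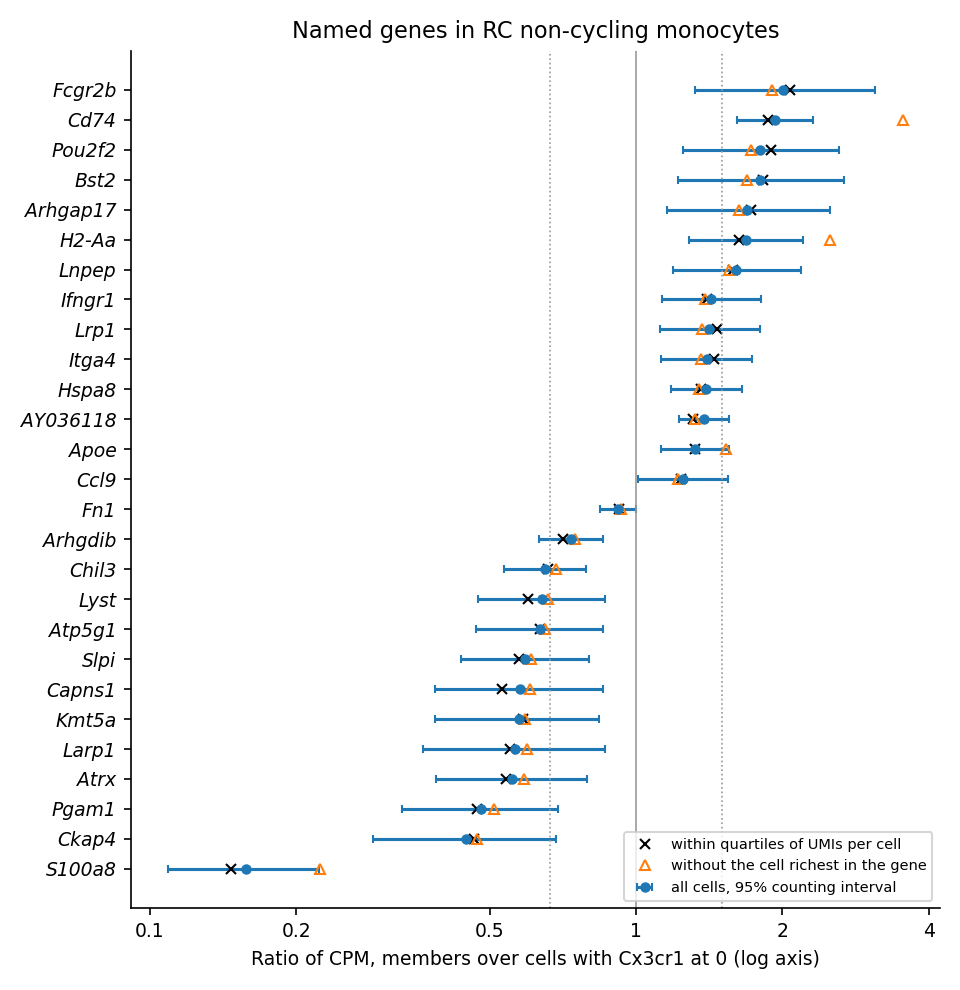
Ratio of CPM in the 124 members over the 127 cells with Cx3cr1 at 0 (x axis, log scale) for the 3 markers and the 12 highest and 12 lowest genes (y axis). Points with bars are all cells with exact 95% counting intervals, crosses are ratios within quartiles of UMIs per cell and triangles leave out the cell with the most UMIs of the gene. S100a8 stands at 0.158 and Cd74 at 1.93, and the dotted lines mark 1.5-fold.

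Late neutrophil genes were found in 75.8% of members and 87.4% of *Cx3cr1*-0 cells, but most *S100a8* and *S100a9* UMIs of the latter sat in a few cells. Of 303 *S100a8* and *S100a9* UMIs in *Cx3cr1*-0 cells, 225 lay in 9 cells with at least 10 of them, whereas 0 members held as many. *S100a8* was found in 24 members, with at most 6 UMIs, and in 47 *Cx3cr1*-0 cells, with up to 73. Without the 9 cells the ratio of *S100a8* moved to 0.557 (0.362–0.846), *S100a9* to 1.29 (0.64–2.69), *Chil3* to 0.709 (0.580–0.865) and *Slpi* to 0.599 (0.439–0.813). So *Chil3* and *Slpi* kept their direction with these cells left out, while that of *S100a9* turned. On the late neutrophil list, 3 of 5 compared genes (*S100a8*, *S100a9* and *Mmp8*) were past 1.5-fold lower and 0 higher, against 3.67% and 4.54% of all genes compared. Granule-gene cells of the same library held *S100a8* at 117449 CPM, and the part of free RNA or of mixed droplets in these values was not tested. Scrublet called 1 doublet in the RC library, which was in neither group.

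MHC class II genes were likewise concentrated. *Cd74*, the invariant chain, was found in 29 members (23.4%) and 11 *Cx3cr1*-0 cells (8.66%), at 900.4 against 466.2 CPM and a ratio of 1.93 (1.61–2.32). Leaving out the richest cell, a *Cx3cr1*-0 cell with 86 UMIs, moved the ratio of *Cd74* to 3.54. *H2-Aa* (chromosome 17, 34282744 to 34287823), an MHC class II chain, was found in 12 and 4 cells, with a ratio of 1.68 (1.28–2.21). When membership was set on thinned counts, *H2-Aa* turned to a log2 ratio of −0.10. The other class II genes compared were inside 1.5-fold over all cells, and single cells weighed on *H2-Ab1* and *H2-Eb1*. *H2-Ab1* had a ratio of 1.17 (0.87–1.57) and turned to 0.635 and 0.690 at equal depth with raw and thinned membership. Without its richest cell, a *Cx3cr1*-0 cell with 35 UMIs, *H2-Ab1* stood at 1.96. *H2-Eb1* had 0.78 (0.50–1.21; 39 against 50 UMIs), and a *Cx3cr1*-0 cell held 40 of those 50. Both were found in more members, *H2-Ab1* in 10.5% against 3.94% of cells and *H2-Eb1* in 8.06% against 3.15%. *H2-DMa*, which helps to load peptides, had 1.05 (0.77–1.44). On the list of monocyte-derived dendritic cell and class II genes, 2 of 5 compared were thus past 1.5-fold higher and 0 lower. Over all genes compared, the shares were 4.54% and 3.67%. At least 10 class II and *Cd74* UMIs were held by 11 members, with 630 of the 743 such UMIs, and by 4 *Cx3cr1*-0 cells, with 417 of 502. In the 11 members, chosen for these genes, *Cd74* was at 8886 CPM. The same 11 cells had *Ly6c2*, the Ly6C antigen gene, at 792.9 CPM (531.0–1139) against 2007 CPM (1864–2158) in the other 113, *Fn1* at 1012 against 2783 CPM and *Apoe* at 2406 against 746.1 CPM. *Cst3*, cystatin C, was at 6398 against 2772 CPM and the dendritic cell marker *Cd209a* at 218.7 against 30.3 CPM, the latter on 8 and 11 UMIs. Of the 234 *Cst3* UMIs of the 11 cells, 104 lay in 1 cell, and *Cd209a* was found in 3 of the 11. The 4 *Cx3cr1*-0 cells rich in class II had *Apoe* at 5161 CPM, *Cst3* at 4549 CPM and *Cd209a* at 349.9 CPM (4 UMIs in 1 cell). *Fn1* was at 1750 CPM in them and *Ly6c2* at 1312 CPM, so this profile was not particular to members. Without the 15 cells rich in class II, *H2-Aa* had 1 and 0 UMIs, *Cd74* had 35 and 10 (ratio 3.75, 1.82–8.502), and *Lrp1*, *Pou2f2*, *Fcgr2b* and *Chil3* kept ratios of 1.41, 1.82, 1.94 and 0.693.

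Most classical monocyte genes had ratios below 1. Of 9 compared on the classical list, 7 were below 1 and 2 above it, where 51.4% of all genes compared were above 1. At 1.5-fold, 0 were higher and 2 lower in members, *Chil3* and *Vcan* (versican, 17 against 36 UMIs). Over all genes compared, 4.54% were past the fold higher and 3.67% lower. Its median log2 ratio was −0.20, against 0.00 over all genes compared. Summed over the list the ratio was 1.002 (0.97–1.03), and the sum is mostly *Lyz2*, the lysozyme gene, at 1.05 (1.02–1.09). *Ly6c2* was found in 90.3% of members and 92.9% of *Cx3cr1*-0 cells, at 1896 against 2316 CPM, a ratio of 0.82 (0.74–0.90). The rule genes *Ccr2* and *Csf1r*, the CCL2 and M-CSF receptors, had ratios of 1.24 (1.11–1.38) and 1.31 (0.99–1.74). The other monocyte genes of the rule were below 1, *F13a1* at 0.89 (0.78–1.002), *Ms4a6c* at 0.96 (0.84–1.09) and *Ly86* at 0.98 (0.79–1.22).

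The defining transcripts of non-classical monocytes were scarce. Of 17 genes listed, 3 were compared, with *Pou2f2* past 1.5-fold higher, *Ear2* (an eosinophil-associated ribonuclease) past it lower at 0.59 (0.35–0.97), and *Itgal*, the LFA-1 alpha chain, at 1.25 (0.86–1.83). *Ear2* turned to a log2 ratio of 1.29 under a stricter cell filter. The summed level was 637.8 against 546.0 CPM, a ratio of 1.17 (0.97–1.41), so the list did not differ beyond counting error. *Ace* had 12 UMIs in members and 8 in *Cx3cr1*-0 cells, *Spn* 12 and 28, and *Cd300e* and *Cd36* 0 in both groups. *Nr4a1* had 10 UMIs in 8.06% of members and 5 in 2.36% of *Cx3cr1*-0 cells, a ratio of 2.01 (0.62–7.48), too few to compare. On the tissue macrophage list 0 of 2 compared genes passed either way, and *C1qb*, *C1qc* and *Mertk* were at 0 UMIs in both groups.

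Several of these genes were graded by the number of *Cx3cr1* UMIs per cell. In cells with 0, 1, 2 and at least 3 UMIs (127, 70, 32 and 22 cells, at medians of 2855, 2886.5, 3453.5 and 3223.5 total UMIs), *Fcgr2b* stood at 87.3, 130.0, 213.2 and 250.4 CPM. *Bst2* was at 107.2, 139.3, 204.3 and 333.9 CPM and *Ifngr1* at 311.6, 408.6, 444.2 and 556.4 CPM. In each of these 3 genes every step was upward, and the intervals of neighboring steps overlapped. *Chil3* was at 688.1 and 640.8 CPM in cells with 0 and 1 UMI and at 222.1 and 222.6 CPM in cells with 2 and at least 3, so the difference in *Chil3* lay between 1 and 2 UMIs. *S100a8* instead differed between 0 UMIs (603.3 CPM) and 1 UMI (92.9 CPM, 56.7–143.4). That difference rested mostly on the 9 *Cx3cr1*-0 cells rich in *S100a8* and *S100a9*, which held 179 of 242 *S100a8* UMIs. The other 118 *Cx3cr1*-0 cells were at 170.7 CPM (131.2–218.4), an interval that overlaps that of cells with 1 UMI. *Ly6c2* (2316, 1973, 1706 and 1961 CPM) and *Lrp1* (309.1, 422.6, 470.8 and 431.2 CPM) had no single order. Cells rich in class II made up 3.15% (0.86–7.87), 5.71% (1.58–14.0), 6.25% (0.77–20.8) and 22.7% (7.82–45.4) of the 4 bins. These genes were picked for display after their values were seen.

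**Figure D3:**
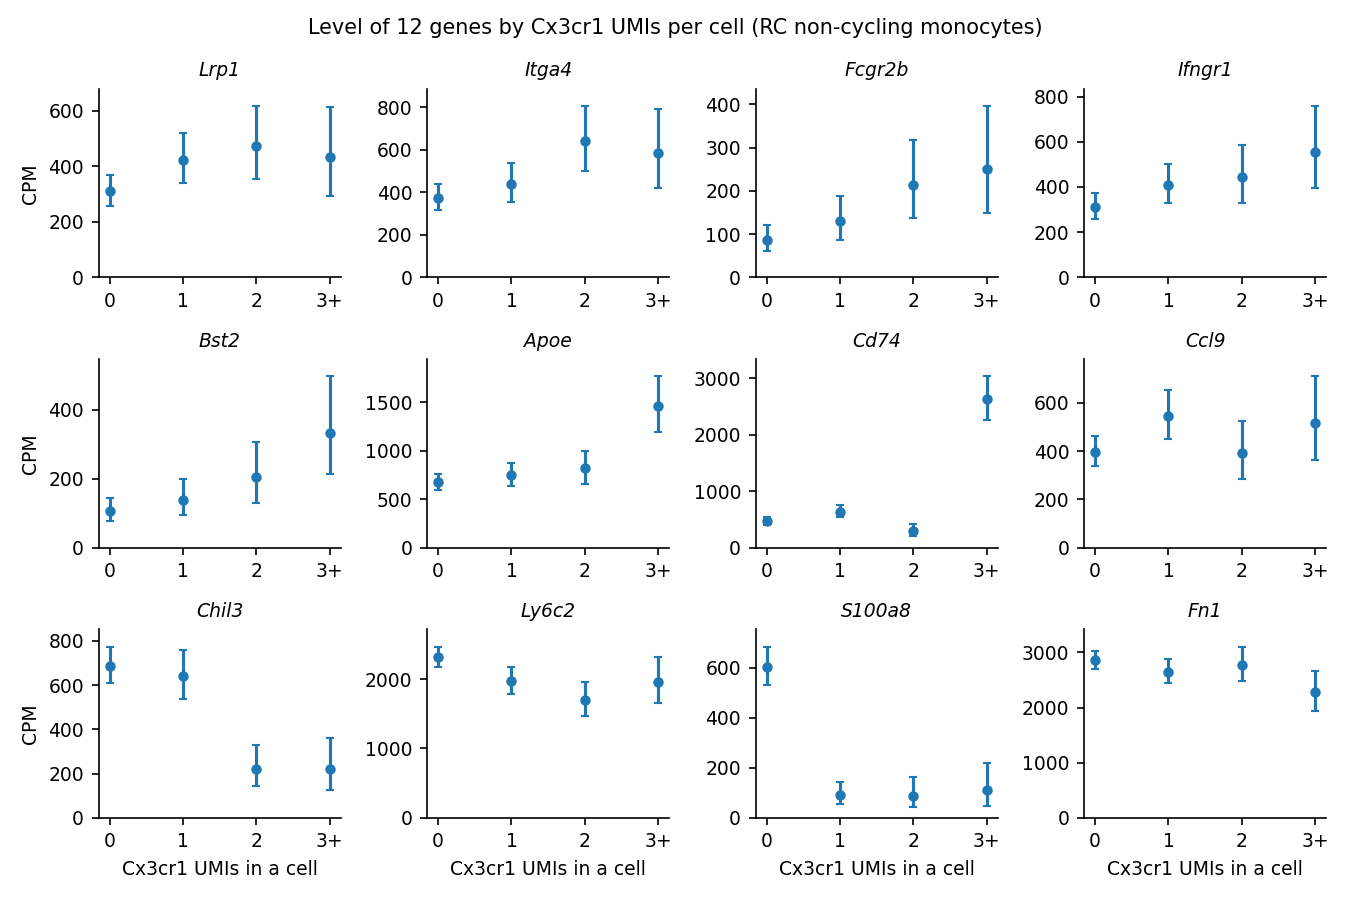
CPM (y axis, from 0) of 12 genes in RC non-cycling monocytes with 0, 1, 2 and 3 or more Cx3cr1 UMIs (x axis; 127, 70, 32 and 22 cells), with exact Poisson 95% intervals. Fcgr2b, Bst2 and Ifngr1 step upward, and Chil3 drops between 1 and 2 UMIs.

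Of genes that act with the receptor, *Adam10* was past the fold and fractalkine itself (*Cx3cl1*) had 0 UMIs. Fractalkine signals through Gi proteins and kinases, and 11 genes of this list were compared, with 0 past 1.5-fold higher and 1 lower, *Adam10*, a protease that sheds fractalkine (32 against 53 UMIs, 0.61, 0.38–0.96). *Gnai2* and *Gnb2*, subunits of the Gi protein, had ratios of 1.06 (0.91–1.24) and 1.07 (0.86–1.32). Of 11 integrin and adhesion genes, 1 was higher, *Itgb1*, the beta chain that pairs with *Itga4* (1.53, 1.096–2.15), and 0 lower. *Itgb2*, the beta chain of LFA-1 and Mac-1, was even at 0.96 (0.77–1.21). As 4.54% of all genes compared were past the fold higher and 3.67% lower, 1 gene of 11 is not a result about either list. Of the chemokine genes, 0 of 2 compared ligands passed, with *Ccl6*, a relative of *Ccl9*, at 1.15 (1.01–1.31).

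Most compared genes on the list of cytokines and of cytokine and growth factor receptors had ratios above 1. Of 12 compared, 10 had ratios above 1, 1 was past 1.5-fold higher (*Il10ra*, the IL-10 receptor, 1.62, 1.07–2.48) and 1 lower (*Ifngr2*, the second interferon-gamma receptor chain, 0.63, 0.39–1.02), with a median log2 ratio of 0.23 against 0.00 over all genes compared. The interferon-gamma receptor chains therefore went opposite ways, *Ifngr1* on 178 against 125 UMIs and *Ifngr2* on 31 against 49. Of 8 type I interferon response genes, 7 had ratios above 1, at a median log2 ratio of 0.40, and 2 were past 1.5-fold (background 51.4% above 1 and 4.54% past the fold), *Bst2* and *Isg15*, a ubiquitin-like modifier (1.93, 1.16–3.26). *Ifitm3*, the most counted of them, had a ratio of 1.16 (1.084–1.25). Among interferon-gamma-induced GTPases 0 of 15 had enough UMIs to be compared, as they summed to 92 and 83 UMIs. Among 5 Toll-like receptor genes 1 was higher, *Cd180*, a TLR4 homolog (1.66, 0.997–2.81), and 7 Fc and complement genes gave *Fcgr2b* higher and *Cfp*, properdin, lower (0.43, 0.26–0.67). Of 13 transcription factors 1 was past 1.5-fold higher, *Tcf4* (1.505, 0.89–2.57, an interval that includes 1), and 0 lower. *Cebpb*, which sustains Ly6C-low monocytes, stood at 0.77 (0.65–0.92). Over all genes compared, 4.54% were past the fold higher and 3.67% lower, so 1 gene on lists this short is not a result about the list.

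Over all cells, 0 of 7 genes of the clearance of dead cells passed 1.5-fold. Of these, 4 had ratios above 1, with *Lrp1* at 1.42, the "don't eat me" signal *Cd47* at 1.40 (1.11–1.78; 440.2 against 314.1 CPM) and its receptor *Sirpa* at 1.12 (0.89–1.40). Lipid handling (7 genes) and lysosome genes (16) also had 0 past the fold either way over all cells. At equal depth with thinned membership, *Lrp1* (1.66), *Apoe* (1.81) and the lysosomal enzyme gene *Gusb* (1.91) were past it higher, and the scavenger-type receptor *Cd93* (0.61) and the fatty acid-binding protein *Fabp5* (0.57) lower. *Npc2*, a cholesterol transfer protein, was at 1.16 (1.02–1.31), *Ctss*, the protease that degrades the invariant chain, at 1.24 (1.081–1.41), and *Psap*, the saposin precursor, at 0.97 (0.90–1.04).

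Cytoskeletal genes were a little lower. All 20 were compared, 0 passed 1.5-fold and 6 had ratios above 1, against 51.4% of all genes compared. The summed level had a ratio of 0.90 (0.88–0.92), with *Actb* at 0.86 (0.81–0.91) and *Tmsb10* at 0.86 (0.82–0.89). For the counts that follow, 3.67% of all genes compared were past the fold lower. S100 and annexin genes had 2 of 13 past the fold lower, *S100a8* and *S100a9*, and *S100a6* was at 0.87 (0.82–0.92). In glycolysis 1 of 8, *Pgam1*, was lower, and *Gapdh* was at 0.76 (0.62–0.92). Mitochondrially encoded genes were even, at a summed ratio of 0.98 (0.95–1.01) and 0 of 12 past the fold. Cycle genes outside the rule stayed low, since the rule removed cycling cells, with 1 of 4 compared S and G2/M genes past the fold lower (*Slbp*, 19 against 32 UMIs). Of 3 p53 targets 1 was lower (*Ccng1*, cyclin G1, 0.65, 0.37–1.12), and *Bax*, which promotes cell death, was at 1.25 (0.90–1.75). Immediate early and dissociation stress genes gave 0 of 7, though the chaperone *Hsp90aa1*, at 0.80, was at 0.55 with thinned membership. The B cell list gave 1 compared gene, *Ighm*, lower at 0.66 (0.45–0.97), which was found at 122.6 CPM in members.

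Against cycling monocytes of the same library, genes went both ways. *Apoe* was at 897.9 CPM in members and 29.0 CPM in cycling cells, *Lrp1* at 437.7 and 67.0 CPM, *Ccl9* at 495.2 and 191.9 CPM and *Itga4* at 522.7 and 190.1 CPM. *Ly6c2* was higher in cycling cells, at 2722 CPM, and *F13a1*, a coagulation factor gene of the rule, was at 1221 CPM in members and 1408 CPM in cycling cells. *Irf8* was at 272.6 and 287.8 CPM and *Ms4a6c* at 1110 and 1095 CPM. *Cx3cr1*-0 cells had *Apoe* at 678.1 CPM and *Lrp1* at 309.1 CPM, so the step between cycling and non-cycling cells in these 2 genes was larger than that between the 2 non-cycling groups.

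More genes were past the fold between members and SAA non-cycling monocytes. Of 3032 genes compared, 621 (20.5%) were at least 1.5-fold higher and 599 (19.8%) at least 1.5-fold lower in members than in SAA. The median log2 ratio over all of them was 0.02. These counts and those within RC rest on different cells and depths, and no test between them was made. Interferon-gamma GTPases were past 1.5-fold lower in members for 10 of 10 genes, with a median log2 ratio of −4.23, and *Gbp2*, which acts in defense against intracellular microbes, was at 32.5 CPM against 1003 CPM. MHC class II and dendritic genes were lower for 7 of 7, with *Cd74* at 900.4 against 5225 CPM. Type I interferon genes were lower for 13 of 16. Fc and complement genes were lower for 6 of 11 and glycolytic genes for 10 of 14. On the list of cytokines and of cytokine and growth factor receptors, 7 of 12 genes were higher. Among them were *Ifngr1* at 445.2 against 119.7 CPM, which was 3.72-fold, and *Il17ra*, the IL-17 receptor, at 310.1 against 83.5 CPM. *Apoe* was 63.3-fold (33.0–139.6) higher in members, at 897.9 against 14.2 CPM, the latter on 9 UMIs. Classical genes were lower for 7 of 10 genes, with *Plac8* at 1871 against 6074 CPM, and *Fn1* and *Ccl9* were higher as given above. *S100a8* was at 95.04 CPM in members and 7665 CPM in SAA cells. For each gene named here, *Cx3cr1*-0 cells stood on the same side of SAA, so these differences were not particular to members. They were 47.8-fold above SAA for *Apoe*, 2.60-fold for *Ifngr1* and 3.94-fold for *Il17ra*. *Gbp2* was at 17.5 CPM in *Cx3cr1*-0 cells, *Cd74* at 466.2 CPM, *Plac8* at 1907 CPM and *S100a8* at 603.3 CPM.

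**Figure D4:**
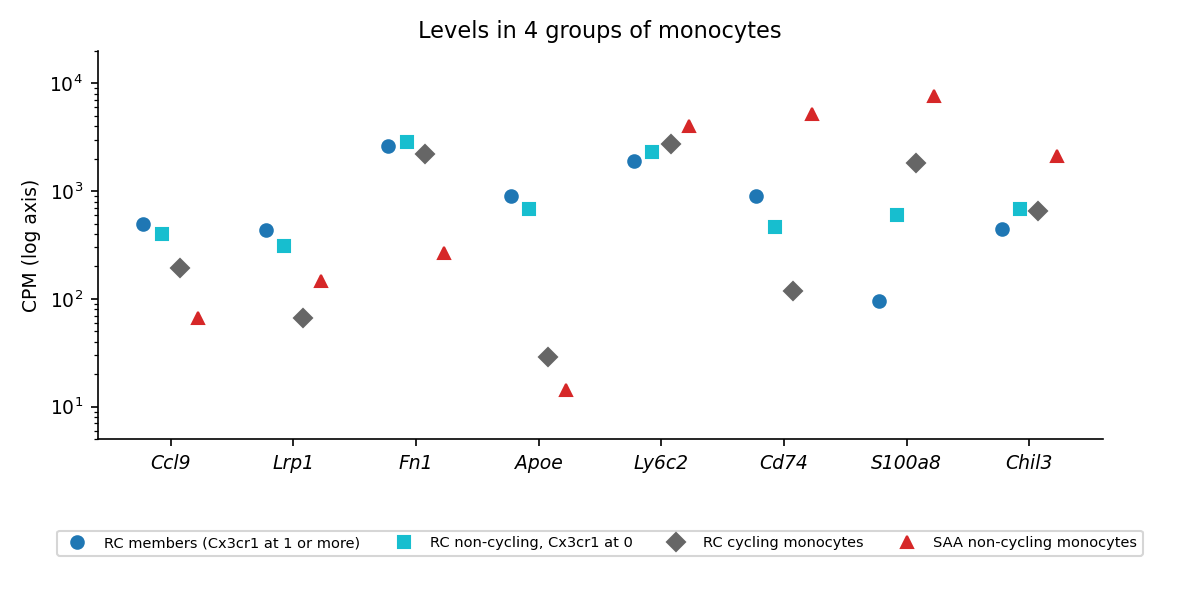
CPM (y axis, log scale) of 8 genes (x axis) in RC members, RC non-cycling monocytes with Cx3cr1 at 0, RC cycling monocytes and SAA non-cycling monocytes, 1 pooled library per condition. Apoe is at 897.9 CPM in members and 14.2 CPM in SAA, and S100a8 at 95.04 and 7665 CPM.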

How the data were processed

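UMI counts per gene and barcode of 2 sorted marrow libraries were analysed, 1 each for RC and SAA mice. The authors made the deposited counts from Chromium 5′ libraries, with Cell Ranger 6.0.1 against mm10 per the submitters' processing notes. They hold 31053 genes and the barcodes called as cells, without normalization, and barcodes below the study's own cell filter are still in them. The study's filter was applied here (at least 1000 genes, at most 25% mitochondrial UMIs), which removed 136 RC and 96 SAA barcodes.

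UMIs were summed over the cells of a group in Python 3.11.15 (pandas 2.3.3, numpy 2.4.6), and intervals came from scipy 1.17.1. Genes with at least 50 UMIs in both groups together were compared, a gene counting as higher or lower at 1.5-fold. Ratios were repeated within 4 quartiles of depth, after thinning to 2200 UMIs (the 10th percentile of non-cycling monocytes, rounded down), and with membership set on thinned counts. A gene at 0 UMIs was compared with a floor of 3 UMIs. Scrublet (scanpy 1.11.5, 1% of doublets expected) was run and doublets were removed only as an alternative. TMM factors came from edgeR 4.0.16 and figures from matplotlib 3.10.9. Positions are those of a GRCm38 annotation, to which 30934 genes were matched by identifier, and which is not the authors' release, and 71 rows share a symbol and were kept apart. The intervals were checked on simulated counts.

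The members and the 34 gene lists were chosen with earlier results of these data known. The genes named are the markers, the 12 highest and 12 lowest by the interval bound nearest to 1 with a minimum of 100 UMIs, and the 3 most counted genes of each list. Others named as past the fold, or shown by *Cx3cr1* bin, were chosen after their values were seen. Values of 1 gene are not reported here. No p-value was computed, since each condition is 1 library of pooled mice.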

Additional observations from a re-analysis of the deposited data

Results flagged for a closer look

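A signal outside the cells compared was found in the RC barcodes that the filter removes. Of 82 removed barcodes that pass the monocyte and cycling criteria, 35.4% (25.1–46.7) held a *Cx3cr1* UMI, 45 UMIs in all and 364.0 CPM, at a median of 1643 UMIs per barcode. Of 17 such SAA barcodes 0 did, which allows up to 17.6% by 3 counts of the total (19.5% by the exact interval). With no cell filter, the share of RC non-cycling monocytes with a *Cx3cr1* UMI was 45.9% (153 of 333 cells).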

How the results depend on the processing

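The share of cells with a *Cx3cr1* UMI became 29.8% (54 of 181) when at least 2 UMIs were asked for and cells with 1 were left out. The count of genes past the fold moved most with the minimum of UMIs. It was 499 higher and 430 lower at a minimum of 20 UMIs, 2 and 3 at 200 UMIs, and 10 and 14 at 2-fold. A stricter filter of 1500 genes and 10% mitochondrial UMIs gave 40 and 42 of 1032 genes. After thinning, higher genes numbered 72 with raw membership, 64 with thinned membership and 54 with a second seed. Fewer genes reached the minimum in each of these last settings. Direction was followed for 88 named genes only, and not for every gene past the fold. Among the followed genes past the fold, it turned for 2, *Ear2* (log2 1.29 with the stricter filter) and *H2-Aa* (log2 −0.10 with thinned membership). Over all 88 genes followed, 63 of 1319 values turned, in 28 genes, of which 26 were inside the fold, and 12 of the 63 lay outside the counting interval of the reported ratio, among them *Apoe* (log2 −0.62, stricter filter), *H2-Ab1* (−0.66, −0.53 and −0.28, thinned) and *Fn1* (0.01, thinned membership). The cause was not tested. For the 12 highest genes 177 of 179 values over 15 settings kept the direction (*H2-Aa* and *Apoe* turned once each), and for the 12 lowest 180 of 180. Both sets were picked in the same cells by the interval bound nearest to 1, and the settings reuse largely the same counts. Few turns were therefore likely beforehand, and these counts are not independent support. Leaving out each gene's richest cell and leaving out cells rich in class II were added after seeing the data. Over single genes and all settings, 1267 values stayed within the counting interval of the reported ratio, and 52 lay outside it. TMM and median scaling shifted log2 ratios by −0.01 and 0.00. No paired analysis was possible because each condition is 1 library.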

Other observations

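Osteoclast precursor genes, which mark monocytes able to become bone-resorbing cells, summed to 60 UMIs in members and 64 in *Cx3cr1*-0 cells, a ratio of 0.94 (0.65–1.36), and 0 of 13 had enough UMIs to be compared. On the list of plasmacytoid and conventional dendritic cells, 2 of 3 compared genes were past 1.5-fold higher, against 4.54% of all genes compared. They were *Bst2* and *Tcf4*, which monocytes also express, and *Bst2* is also on the type I interferon list. *Tcf4* passed narrowly, at 1.505 (0.89–2.57) on 39 against 26 UMIs. It fell inside the fold within quartiles of depth (1.46) and without its richest cell (1.40). *Irf8*, a regulator of monocyte and dendritic cell development, had a ratio of 1.29 (0.96–1.73). Of the 12 genes on the dendritic cell list, 8 were at 0 UMIs in members and 8 in *Cx3cr1*-0 cells. Matrix and coagulation genes gave 0 higher and 2 lower of 7 compared, *Vcan* and *Mmp8*, against 4.54% and 3.67% of all genes compared. Erythroid genes summed to 14 UMIs in members and 2 in *Cx3cr1*-0 cells.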
